A study of Mus musculus with 12 samples.

Results

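The miR-30 family was measured in the mouse hippocampus by every assay of the TaqMan OpenArray whose miRNA number was 30 and whose name carried no passenger strand mark. This rule, which uses names and no measured value, found 7 of 619 miRNA assays: the 5p arms miR-30a-5p, miR-30b, miR-30c, miR-30d and miR-30e, and the 3p arms miR-30a-3p and miR-30e-3p. Of these, 6 were read in all 12 samples, as were 335 of the 619 assays, and miR-30e was read in 11.

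The samples formed 4 groups of 3, all from C57BL/6 mice, of 8 weeks by the labels and, by the methods of the study, male and within an age range that starts at 8 weeks. The wt control and P2rx7-/- control groups had received vehicle into the amygdala, and the wt post-SE and P2rx7-/- post-SE groups kainic acid, which triggers status epilepticus (SE). All groups were given the anticonvulsant lorazepam. The ipsilateral hippocampus was taken 8 h after the injection, and RNA of 2 mice was pooled into each sample, with 1 µg used per array. P2rx7-/- mice are a constitutive knockout of the P2X7 receptor, an ion channel gated by ATP, so that its absence is not limited to a cell type or to the time of SE. The P2rx7 mRNA was not measured here, so the array gives no check of the genotype. The study checked it by a Western blot, which gave no receptor signal in P2rx7-/- hippocampus after SE. The comparisons ask whether hippocampal miRNA levels differ with the receptor, with SE and with both.

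A miRNA hairpin is cut by Dicer into a duplex, and either arm can be loaded into the silencing complex, where bases 2 to 8, the seed, select target mRNAs. The miR-30 genes lie in pairs on several chromosomes, their 5p arms share a seed and they are abundant in many tissues, the brain among them. The 3p arms have a seed of their own and so pair with other targets.

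The mature sequences show why the members belong together and how little separates some of them. They are written 5′ to 3′ from RefSeq (GRCm38.p6), with the seed in capitals. Entries were matched for miR-30a-5p, miR-30c, miR-30e, both 3p arms and miR-384-5p, which is no member but has the same seed as the 5p arms. miR-30b and miR-30d are named without a sequence.
miR-30a-5p: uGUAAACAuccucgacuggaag
miR-30e: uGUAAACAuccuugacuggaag
miR-30c: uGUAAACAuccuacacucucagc
miR-384-5p: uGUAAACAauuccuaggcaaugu
miR-30a-3p: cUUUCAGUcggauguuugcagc
miR-30e-3p: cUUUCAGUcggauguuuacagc

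Counted from 1 at the 5′ end, miR-30e differs from miR-30a-5p at a single base, C13U, and miR-30e-3p from miR-30a-3p at a single base, G18A. miR-30c has the same 12 bases as miR-30a-5p from the 5′ end and differs at 5 of the 22 bases compared. The 5p seed GUAAACA is held by 4 and the 3p seed UUUCAGU by 2 of 1679 mature miRNAs in the table, which lists neither miR-30b nor miR-30d, so that the former count is short of these. miR-30a-5p comes from Mir30a at chr1:23272274-23272295 and miR-30a-3p from chr1:23272315-23272336 of the same hairpin, both on the plus strand. miR-30e comes from Mir30e at chr4:120772660-120772681 and miR-30e-3p from chr4:120772618-120772639, on the minus strand. miR-30c has a copy beside each of these hairpins, Mir30c-2 at chr1:23291714-23291736 on the plus strand and Mir30c-1 at chr4:120769584-120769606 on the minus strand, and 1 assay reads both. Mir30c-1 and Mir30e lie within the span of the gene Nfyc. Assays for sequences this close may share signal, which these files cannot show.

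An assay is read as its threshold cycle (Ct), so that 1 cycle is about a factor of 2 and a low Ct means much miRNA. Levels are given as −ΔCt, the number of cycles by which an assay came before the mean of the 335 assays in the same sample. The files list Ct from about 10 to 28, and an empty value does not tell whether a reaction was too early, too late or failed. Between 470 and 538 miRNA assays had a Ct per sample, and each assay was read once in a sample. wt control replicate 1 stood apart, with 72 of the 335 assays (21.5%) over 2 cycles from the median of the remaining samples, 40 of them low and 32 high, against 3 to 28 assays in the other samples. Differences that use it are therefore given with and without it. All 6 neuronal markers chosen (miR-124, miR-9, miR-128, miR-137, miR-138 and miR-218) had a Ct in some samples and miR-128a and miR-137 in all 12. Their summed list level was 5.17 to 8.36 in the wt control and 9.43 to 10.2 in the P2rx7-/- control samples. It was 8.53 to 10.4 in the wt post-SE and 8.20 to 10.3 in the P2rx7-/- post-SE samples. The wt control samples were thus below all P2rx7-/- control and wt post-SE samples. miR-9 had a Ct in 4 samples and miR-218 in 8, so these sums also depend on empty values, and their part in the results was not tested. Of the other lists, those for oligodendrocytes (2 markers), microglia and leukocytes (4), erythrocytes (3) and liver and muscle (4) had an assay for every marker. Those for astrocytes and choroid plexus and for vessels had assays for 2 of 3 markers, miR-211 and miR-126-3p being not analysed here. In each of these lists some assay lacked a Ct in some samples, such as miR-144 with a Ct in 8, so their sums also depend on empty values. The erythrocyte list summed to 2.50 to 4.62 in the wt control, 2.73 to 4.16 in the P2rx7-/- control, 2.12 to 2.36 in the wt post-SE and 2.40 to 3.24 in the P2rx7-/- post-SE samples, so that the wt post-SE samples were below all others, and its part in the results was not tested either. For the remaining lists the ranges of all groups overlapped. In bulk tissue, fewer cells of a type and less miRNA per cell cannot be told apart.

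Members of the miR-30 family were among the strongest signals of the 335 assays read in all samples. By mean level miR-30b was number 2 and miR-30c number 3 of the 335 assays, the 3p arms miR-30e-3p and miR-30a-3p were numbers 18 and 21, miR-30a-5p was number 25 and miR-30d number 58. Assays amplify with different efficiency, so this order is one of Ct and not of molecules. It leaves out every assay with an empty value. Among these are early ones, such as miR-9 (median level 8.66 in 4 samples) and miR-218 (8.32 in 8), and late ones, such as miR-144 (−3.87 in 8). miR-30b had a Ct under 11 in 6 samples and miR-30c in 7, close to the lowest Ct listed.

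miR-30b, a 5p arm, was read early in all 12 samples. Its level was 8.98, 7.70 and 7.59 in the wt control, 7.47, 7.53 and 6.30 in the P2rx7-/- control, 7.44, 8.08 and 7.78 in the wt post-SE and 7.60, 7.64 and 7.14 among P2rx7-/- post-SE samples. All 3 P2rx7-/- control samples were below the wt control samples, and no other of the 4 comparisons was free of overlap. The order of the means ran from wt control (8.09) over wt post-SE (7.77) and P2rx7-/- post-SE (7.46) to P2rx7-/- control (7.10), and neighbours in it overlapped. The wt control mean was 7.64 without replicate 1, below that of the wt post-SE samples.

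miR-30c had both tight and wide groups. Its level was 1.90, 8.33 and 8.15 in the wt control, 6.99, 8.43 and 8.44 in the P2rx7-/- control, 8.16, 8.45 and 8.34 in the wt post-SE and 4.21, 7.50 and 8.32 among P2rx7-/- post-SE samples. It was low in wt control replicate 1, where the Ct was 17.2, and in P2rx7-/- post-SE replicate 1, where it was 14.3. The other 10 samples lay between 6.99 and 8.45, and every pair of groups overlapped. wt post-SE samples had the highest mean (8.32 ± 0.14, SD, n = 3) and wt control samples the lowest (6.13 ± 3.66, SD, n = 3, or 8.24 without replicate 1), with P2rx7-/- control (7.95) and P2rx7-/- post-SE samples (6.68) between them.

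miR-30a-5p was read at −2.60, 5.76 and 5.62 in the wt control, 4.41, 5.61 and 5.48 in the P2rx7-/- control, 6.83, 5.89 and 5.90 in the wt post-SE and 5.77, 5.52 and 5.28 among P2rx7-/- post-SE samples. The wt post-SE samples held the highest values of all 12, and wt control replicate 1, with a Ct of 21.7, the lowest. The means ran in the order wt post-SE (6.21 ± 0.54), P2rx7-/- post-SE (5.52 ± 0.25), P2rx7-/- control (5.17 ± 0.66) and wt control (2.92 ± 4.79, or 5.69 without replicate 1; SD, n = 3 each). Of neighbours in this order, post-SE samples of the genotypes did not overlap and the others did.

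miR-30e, 1 base away from miR-30a-5p, had no Ct in wt control replicate 1. Its level was 4.61 and 4.51 in wt control replicates 2 and 3, 4.77, 4.14 and 4.27 in the P2rx7-/- control, 6.27, 4.19 and 4.91 in the wt post-SE and 5.30, 4.39 and 4.92 among P2rx7-/- post-SE samples. wt post-SE replicate 1 was the highest, and all groups overlapped with their neighbours in the order of the means, from wt post-SE (5.12) over P2rx7-/- post-SE (4.87) and wt control (4.56, n = 2) to P2rx7-/- control (4.39).

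miR-30d, a further 5p arm, spanned 1.87 cycles over the 12 samples. Its level was 4.02, 3.45 and 3.47 in the wt control, 2.74, 3.45 and 3.63 in the P2rx7-/- control, 3.50, 3.92 and 3.87 in the wt post-SE and 4.61, 3.73 and 3.23 among P2rx7-/- post-SE samples. All groups overlapped, with means from 3.27 in the P2rx7-/- control to 3.85 in the P2rx7-/- post-SE samples.

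The 3p arms were read about as early as their 5p partners. miR-30a-3p was read at 5.30, 5.46 and 5.20 in the wt control, 5.34, 5.52 and 5.12 in the P2rx7-/- control, 5.53, 5.19 and 4.22 in the wt post-SE and 5.44, 5.28 and 5.41 among P2rx7-/- post-SE samples. miR-30e-3p was read at 5.33, 5.64 and 5.48 in the wt control, 5.55, 5.56 and 5.33 in the P2rx7-/- control, 5.77, 5.35 and 4.06 in the wt post-SE and 5.56, 5.48 and 5.42 among P2rx7-/- post-SE samples. Both were lowest in wt post-SE replicate 3, and without that sample all values of miR-30a-3p lay between 5.12 and 5.53. All groups overlapped.

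**Figure D1:**
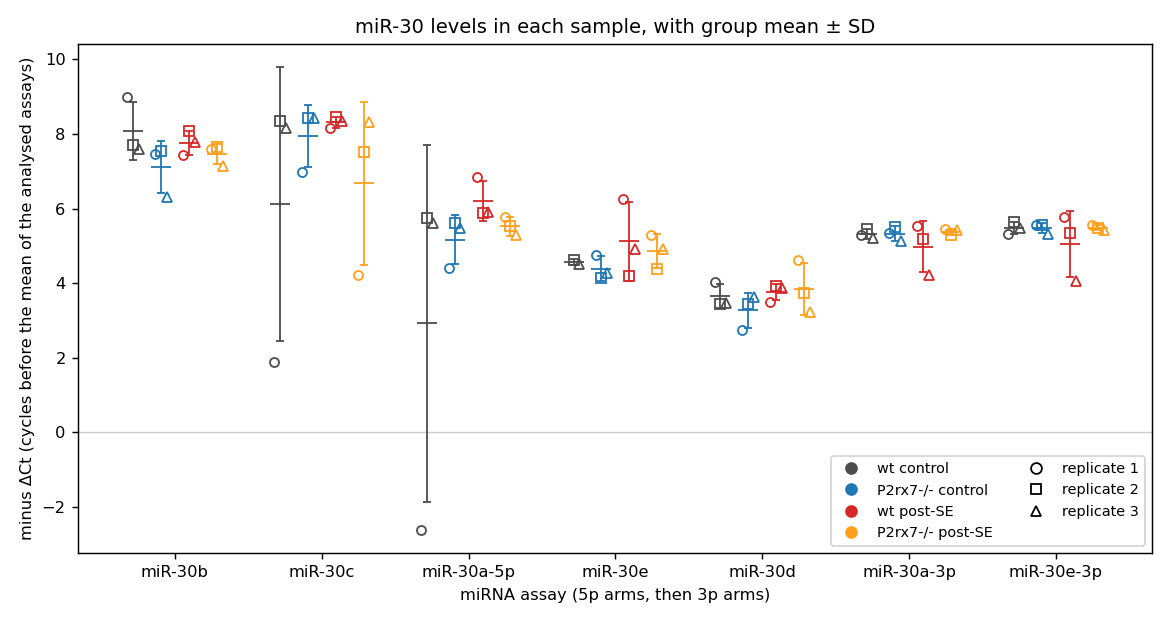
Level of each miR-30 assay (y axis, −ΔCt in cycles before the mean of 335 assays) by assay (x axis), with 1 point per sample, coloured by group and shaped by replicate, and bars for the group mean ± SD (n = 3; n = 2 for miR-30e in wt control). miR-30c and miR-30a-5p have wide wt control bars because replicate 1 lies at 1.90 and −2.60, and the 3p arms lie close together around 5.

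The spread within groups sorted the members into steady and unsteady ones. The pooled SD was 0.36 cycles for miR-30a-3p, 0.46 for miR-30e-3p, 0.47 for miR-30d and 0.56 for miR-30b, against a median of 0.636 over the 335 assays. For miR-30a-5p it was 2.43 and for miR-30c 2.17, larger than in 94.6% and 92.2% of the assays. Without wt control replicate 1 these values were 0.477 for miR-30a-5p and 1.25 for miR-30c, beside a median of 0.537, and the latter was still larger than in 89.3% of the assays. In the same 11 samples miR-30e had an SD of 0.641 and its partner miR-30e-3p of 0.483.

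In wt control replicate 1, arms of the same hairpin were read very differently. miR-30a-5p lay −8.22 cycles and miR-30c −6.42 cycles from the median of the others, whereas miR-30a-3p (−0.03) and miR-30e-3p (−0.15) were within 0.2 cycles of it. miR-30b lay 1.40 and miR-30d 0.52 cycles above it. The 5p arms of Mir30a, Mir30e and Mir30c were thus late or unread while their 3p partners, where measured, and the 5p arms of miR-30b and miR-30d were not. In P2rx7-/- post-SE replicate 1, miR-30c lay −4.11 cycles from the median of the others and miR-30d 1.10 cycles above it, and miR-30a-5p was within 0.2 cycles. wt control replicate 1 also had the fewest assays with a Ct (470), and what part the state of that sample had in these readings was not tested.

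**Figure D2:**
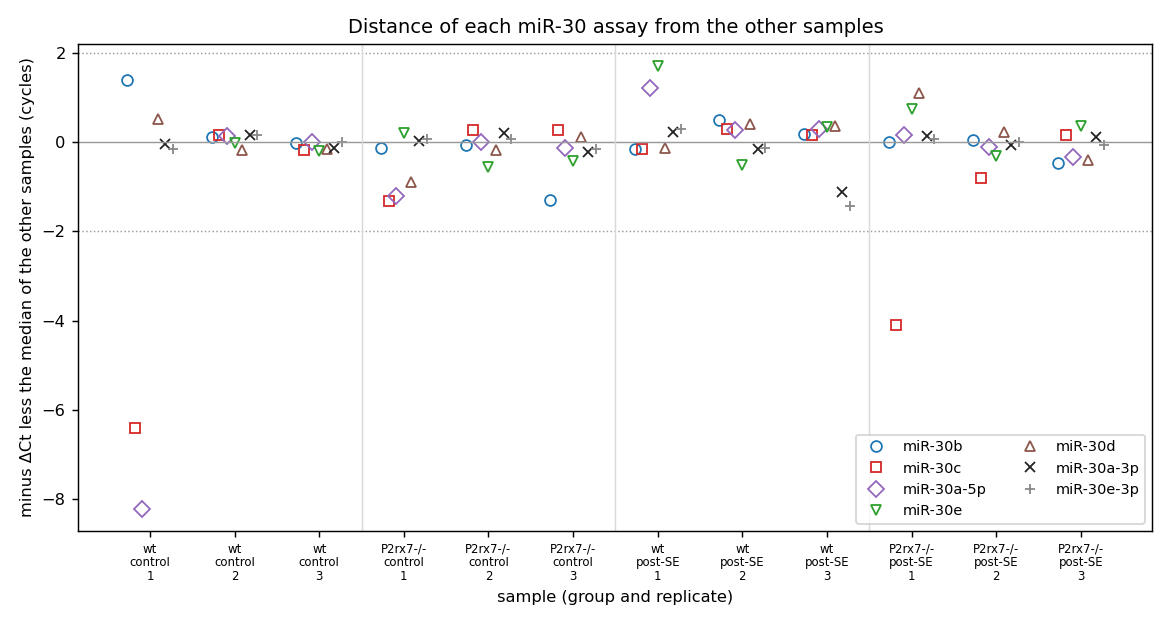
Distance of each miR-30 assay (symbols) from its median over the other samples (y axis, cycles of −ΔCt, below 0 is less miRNA) in each of the 12 samples (x axis, by group and replicate), with dotted lines at 2 cycles either way. Points beyond 2 cycles are miR-30a-5p (−8.22) and miR-30c (−6.42) in wt control replicate 1 and miR-30c (−4.11) in P2rx7-/- post-SE replicate 1; miR-30e has no value in the former.

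Arms of a hairpin can be compared within a sample, where the normalization cancels. miR-30a-5p came before miR-30a-3p by −7.91, 0.30 and 0.42 cycles in the wt control, −0.93, 0.09 and 0.36 in the P2rx7-/- control, 1.30, 0.70 and 1.68 in the wt post-SE and 0.33, 0.24 and −0.14 among P2rx7-/- post-SE samples. The wt post-SE samples were above all 9 others, with a mean of 1.23 ± 0.50 cycles (SD, n = 3) against 0.14 ± 0.25 in the P2rx7-/- post-SE, −0.16 ± 0.68 in the P2rx7-/- control and −2.40 ± 4.77 in the wt control samples, or 0.36 in the latter without replicate 1. The comparison was noticed after the values were seen and has no p. Apart from Mir30e, below, the arms of other hairpins were not compared in this way. How common such a gap is on the array is therefore not known. It is also not independent of the level of miR-30a-5p, which alone was highest in the wt post-SE samples. The gap drew on both arms: miR-30a-5p was highest in wt post-SE replicate 1 and miR-30a-3p lowest in wt post-SE replicate 3.

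For Mir30e, miR-30e came before miR-30e-3p by −1.02 and −0.97 cycles in wt control replicates 2 and 3, −0.78, −1.42 and −1.05 in the P2rx7-/- control, 0.50, −1.16 and 0.85 in the wt post-SE and −0.26, −1.09 and −0.50 among P2rx7-/- post-SE samples. Here wt post-SE replicates 1 and 3 were the 2 samples above 0, but replicate 2 lay among the control samples, so the groups overlapped. The 3p arms of both hairpins kept close to each other, with miR-30e-3p between −0.16 and 0.28 cycles before miR-30a-3p in the 12 samples. Neighbouring genes were less alike: miR-30c came before miR-30a-5p by 1.33 to 3.04 cycles in the 10 samples other than wt control replicate 1, where it was 4.50, and P2rx7-/- post-SE replicate 1, where it was −1.57. miR-30c has a copy in both clusters, so its level does not belong to 1 of them.

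**Figure D3:**
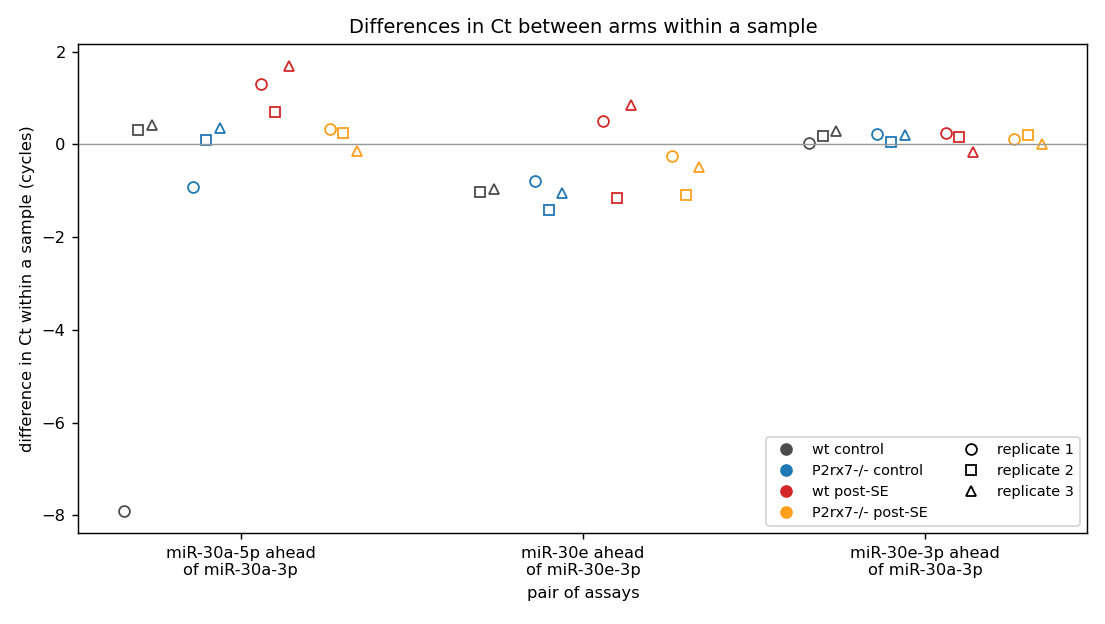
Difference in Ct within a sample (y axis, cycles; above 0 the first assay came earlier) for the arms of Mir30a, the arms of Mir30e and the 3p arms of both (x axis), with 1 point per sample, coloured by group and shaped by replicate. The wt post-SE points of the arms of Mir30a (0.70 to 1.68) lie above all others, wt control replicate 1 lies at −7.91, and the 3p arms differ by −0.16 to 0.28 in the 12 samples.

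Across samples the 3p arms followed each other, and the other pairs of members varied. Over the 12 samples, the level of miR-30a-3p had a Pearson r of 0.97 with miR-30e-3p, and still 0.97 over the 11 samples without wt control replicate 1. miR-30a-5p had an r of 0.81 with miR-30c over 12 samples, which was 0.14 without wt control replicate 1. Over 12 samples miR-30b had an r of −0.66 with miR-30a-5p and −0.62 with miR-30c, or 0.20 and −0.12 without that sample. Without it, miR-30a-5p had an r of 0.50 with miR-30d and 0.52 with miR-30e, and miR-30c of −0.52 with miR-30d. miR-30a-5p had an r of −0.05 with miR-30a-3p, and miR-30e, over 11 samples, of 0.11 with miR-30e-3p. These are descriptions, in which the points share a normalizer and wt post-SE replicate 3 contributes to the likeness of the 3p arms.

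In P2rx7-/- control against wt control samples, no miR-30 level passed the test. limma called 0 of 6 members and 0 of 335 assays (0%) below an adjusted p of 0.05 (Benjamini-Hochberg), and 20 assays, none of them a member, had an unadjusted p below 0.05 (5.97%). By the rule of the study, an average fold change (FC) above 1.5 or below 0.6, 2 members were called up and 1 down. Over all 335 assays the rule called 21.2% up and 15.5% down, so that calls of this kind were common on the array. The study reports fewer up and fewer down calls than found here, in this comparison and in those with wt post-SE samples. Its lists were thus not reproduced, and the reason was not tested. miR-30a-5p had an average FC of 5.05 and miR-30c of 3.91, and miR-30b of 0.541. The wt control samples compared with their own mean in this way gave 4.54 for miR-30a-5p and 2.91 for miR-30c. Without wt control replicate 1 the FCs were 0.751, 0.911 and 0.743, and 0 of the 6 members were called. Without P2rx7-/- control replicate 3 miR-30b was not called.

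On the log2 scale the same difference was 2.25 (SE 1.77, limma adjusted p = 0.747) for miR-30a-5p and turned to −0.50 (SE 0.44, adjusted p = 0.982) without wt control replicate 1. miR-30c went from 1.83 (SE 1.59) to −0.28 (SE 1.02). miR-30b differed by −0.99 (SE 0.46, adjusted p = 0.615) with no overlap between the groups, and by −0.53 (SE 0.42, adjusted p = 0.982) without that sample. It was the 1 of 6 members without overlap, beside 14% of all assays. A two-sided exact permutation test of miR-30b gave p = 0.1, the smallest that 3 against 3 samples allow. miR-30d differed by −0.38 (SE 0.40), miR-30e by −0.17 (SE 0.58), miR-30a-3p by 0.01 (SE 0.34) and miR-30e-3p by −0.002 (SE 0.40). These 4 differences were −0.17, −0.16, 0.01 and −0.07 without wt control replicate 1. For miR-30a-3p the 95% interval of the difference was −0.75 to 0.77.

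In wt post-SE against wt control samples, the FC rule called miR-30a-5p (average FC 10.2) and miR-30c (4.57) up and no member down, where it called 23.3% of the 335 assays up and 12.5% down. Without wt control replicate 1 these FCs were 1.47 and 1.04, and 0 of these 6 members were called. limma called 0 members and 0 assays (0%), with 13 assays (3.88%) and no member below an unadjusted p of 0.05. The log2 difference was 3.29 (SE 1.77, adjusted p = 0.664) for miR-30a-5p, or 0.50 (SE 0.44, adjusted p = 1.00) without that sample, and 2.19 (SE 1.59) for miR-30c, or 0.05 (SE 1.02). The miR-30a-5p values of the groups did not overlap (exact permutation p = 0.1), as was so for 11% of all assays and for no other member. The 3p arms differed by −0.34 (SE 0.34) and −0.42 (SE 0.40), and the groups overlapped. miR-30b differed by −0.32 (SE 0.46), miR-30d by 0.12 (SE 0.40) and miR-30e, fitted with 2 wt control samples, by 0.56 (SE 0.58). The average FC of miR-30e was 1.77, with 3.27 in wt post-SE replicate 1 and 0.772 as the lowest, and 1.72 in the analysis without wt control replicate 1, so that this member, which is not among the 6, was past 1.5 in both. The log2 differences without wt control replicate 1 were −0.37 for miR-30a-3p, −0.53 for miR-30e-3p, 0.28 for miR-30d and 0.54 for miR-30e, and that of miR-30b turned to 0.10.

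In P2rx7-/- post-SE against P2rx7-/- control samples, which leave wt control replicate 1 out of both groups, 1 member passed the FC rule. This was miR-30d, with an average FC of 1.62 that rested on replicate 1 (FC 2.52, the lowest being 0.967), and the rule called 17.9% of all assays up and 7.16% down. Leaving out P2rx7-/- post-SE replicate 1 gave 0 calls among the 6 members, leaving out P2rx7-/- post-SE replicate 3 gave 2 and leaving out P2rx7-/- control replicate 2 gave 3. Leaving out P2rx7-/- control replicate 1 gave 1 call, which was miR-30c and not miR-30d. miR-30c had an average FC of 0.697 and a log2 difference of −1.28 (SE 1.59), which was −0.04 without P2rx7-/- post-SE replicate 1. In the limma fit wt control replicate 1 still enters the SE through the shared spread. Without that sample the difference of miR-30c was −1.32 (SE 0.91). limma called 0 members and 0 assays (0%), and 10 assays (2.99%) with no member had an unadjusted p below 0.05. The other members differed by 0.01 to 0.58, and for all 6 the groups overlapped, as they did for all but 6.57% of the assays.

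In P2rx7-/- versus wt post-SE samples, miR-30c passed the FC rule as down (average FC 0.542), where 4.48% of the assays were down and 17% up. Its values of 4.21, 7.50 and 8.32 against 8.16 to 8.45 overlapped, and the log2 difference was −1.64 (SE 1.59, adjusted p = 0.999). Without P2rx7-/- post-SE replicate 1 it was −0.41, and the 1 member called was miR-30a-5p in place of miR-30c. The count of 1 call became 0 with the median as normalizer, 2 with the snoRNA controls as normalizer (both 3p arms), 3 without wt post-SE replicate 1 and 2 without replicate 2 or 3 of that group. miR-30a-5p was lower in all 3 P2rx7-/- post-SE samples, at 5.28 to 5.77 against 5.89 to 6.83. Its average FC was 0.629, just outside the rule, and its log2 difference −0.68 (SE 1.77, adjusted p = 0.999). Without wt control replicate 1, which enters through the shared spread, the SE was 0.40 and the interval −1.57 to 0.20 (adjusted p = 0.981). It was the 1 member without overlap, beside 5.67% of all assays, and limma called 0 members and 0 assays (0%), with 4 assays (1.19%) and no member below an unadjusted p of 0.05. The 3p arms had positive differences, 0.40 (SE 0.34) for miR-30a-3p and 0.43 (SE 0.40) for miR-30e-3p, with overlap.

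The difference of the SE effect between the genotypes was not called for any member or any of the 335 assays (0%), with 8 assays (2.39%) and no member below an unadjusted p of 0.05. It was −2.93 (SE 2.51) for miR-30a-5p and −3.47 (SE 2.24) for miR-30c, and −0.18 (SE 0.59) and −1.37 (SE 1.37) without wt control replicate 1. For miR-30b it was 0.68 (SE 0.65), for miR-30d 0.46 (SE 0.57), for miR-30a-3p 0.39 (SE 0.48), for miR-30e-3p 0.43 (SE 0.56) and for miR-30e −0.08 (SE 0.78), and without wt control replicate 1 these were 0.22, 0.26, 0.39, 0.49 and −0.10. For miR-30c it was −2.23 without P2rx7-/- post-SE replicate 1 and −0.10 without both of these samples.

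**Figure D4:**
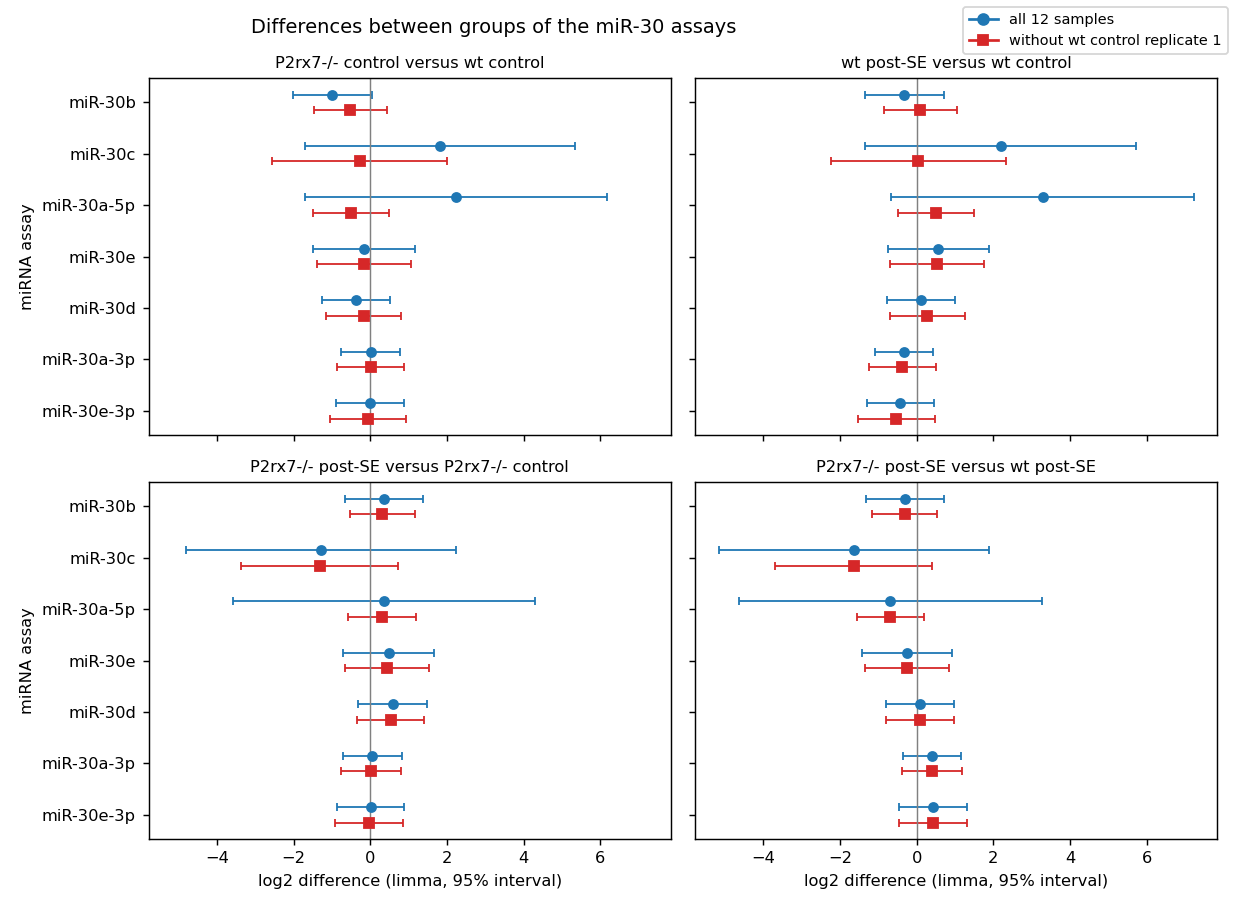
limma log2 difference with its 95% interval (x axis) for each miR-30 assay (y axis) in 4 comparisons of groups, from all 12 samples (circles) and without wt control replicate 1 (squares). The intervals all include 0. The differences of miR-30c and miR-30a-5p against wt control samples lie at 1.83 to 3.29 with wt control replicate 1 and between −0.50 and 0.50 without it.

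Passenger strands are usually degraded after the guide is loaded. By mean level, the miR-30 assays with a passenger mark in their name were later than the members. The 3p arms miR-30a-3p and miR-30e-3p carry no such mark and count as members, so this does not hold for all 3p arms. Of 4 such assays 3 had a Ct in all samples, miR-30d*, miR-30b* and miR-30c-1*, at numbers 223, 298 and 314 of the 335 by mean level, and miR-30c-2* had a Ct in a single sample, P2rx7-/- post-SE replicate 2. miR-30d* was steady within groups, with a pooled SD of 0.33. Its level was −0.98, −1.28 and −1.35 in the wt control, −2.48, −1.48 and −1.85 in the P2rx7-/- control, −2.56, −1.96 and −1.94 in the wt post-SE and −1.63, −1.65 and −1.42 among P2rx7-/- post-SE samples. The wt control samples were above all others, and P2rx7-/- post-SE samples were above wt post-SE samples. The groups did not overlap for 14%, 11% and 5.67% of all assays in P2rx7-/- against wt control, wt post-SE against wt control and P2rx7-/- versus wt post-SE samples.

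For miR-30d* the log2 difference was −0.74 (SE 0.32, limma adjusted p = 0.615) in P2rx7-/- control against wt control and −0.95 (SE 0.32, adjusted p = 0.664) in wt post-SE against wt control samples. It was 0.59 (SE 0.32, adjusted p = 0.999) in P2rx7-/- versus wt post-SE samples. These were −0.61, −0.87 and 0.59 without wt control replicate 1. The difference of the SE effect between genotypes was 1.32 (SE 0.46, adjusted p = 0.851), or 1.20 (SE 0.51) without wt control replicate 1, so none passed the test over all assays. In the order of these contrasts, the unadjusted limma p of miR-30d* was 0.046, 0.015, 0.099 and 0.016. Without wt control replicate 1 it was 0.14, 0.045, 0.11 and 0.040. Of all assays, 5.97%, 3.88%, 1.19% and 2.39% had an unadjusted p below 0.05 in the fits of all 12 samples. By the FC rule miR-30d* was down in wt post-SE against wt control samples (0.527, or 0.561 without wt control replicate 1) and up in P2rx7-/- versus wt post-SE samples (1.51 in both), where the rule called 12.5% of all assays down and 17% up. miR-30d, its partner on the hairpin, had differences of −0.38, 0.12 and 0.09 in the same 3 comparisons. miR-30b* lay between −5.06 and −3.51. miR-30c-1* lay between −7.30 and −0.62, highest in wt post-SE replicate 2, and its groups overlapped. Its average FC was past 1.5 in P2rx7-/- against wt control (2.01) and P2rx7-/- post-SE against P2rx7-/- control samples (1.69). In wt post-SE against wt control samples it was 14.2, with single FCs from 0.675 to 40.4. Without wt control replicate 1 these averages were 2.38, 1.64 and 16.5. The rule called 21.2%, 17.9% and 23.3% of all assays up there. miR-30b* was past 1.5 only in the last of these without that sample (1.61).

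miR-384-5p, which shares the 5p seed but comes from a hairpin on the X chromosome, was read about as early as miR-30b. It had a Ct in 10 samples, without wt post-SE replicate 3 and P2rx7-/- post-SE replicate 2, at levels of 6.67 to 8.26. In wt control replicate 1 it stood at 7.68, between the 8.08 and 7.55 of the other wt control samples. Its differences between groups ran from −0.44 (SE 0.45) to 0.33 (SE 0.50), and all groups overlapped. The let-7 and miR-98 guide assays, another abundant family, had median differences of −0.22, −0.12, −0.06 and −0.41 over 7 assays in the 4 comparisons, in the order given above. The medians of the 6 members were 0.002, −0.10, 0.21 and −0.11 and those of all assays −0.02, −0.09, 0.02 and −0.01. The medians of the first 2 comparisons without wt control replicate 1 were 0.13 and −0.07 for let-7, −0.23 and 0.07 for the members and 0.003 and 0.008 for all assays.

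The 3 assays most like the mean of the 4 fully read 5p members, among 329 others, were miR-99a (Pearson r 0.958 over 12 samples), miR-101 (0.944) and miR-26a (0.943). Without wt control replicate 1 the r was 0.656, 0.519 and 0.481. In that sample miR-99a was at −6.69, miR-101 at −5.10 and miR-26a at −7.86, while the other samples ran from 2.34 to 5.22, from 1.03 to 3.84 and from 5.14 to 7.76. These assays were thus low in the same sample as miR-30a-5p and miR-30c.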

How the data were processed

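Hippocampal RNA of 12 samples was measured by TaqMan OpenArray. The authors deposited Ct values without normalization; the software that called them is not given in the sources used here. A second deposited table holds a fold change for each assay in each sample, and that of P2rx7-/- control replicate 2 carries an offset of 0.161 (log2) against the Ct values; it was used as an alternative scaling alone. No column was left unassigned to a sample.

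Following the methods of the study, assays with a Ct below 28 in all 12 samples (335) were analysed after global mean normalization, and FC was 2 to the power of −ΔΔCt against the mean of the reference group, called when the mean of 3 FCs was above 1.5 or below 0.6. limma 3.58.1 (R 4.3.3; lmFit, eBayes) was fitted to −ΔCt with a coefficient per group, and p-values of 5 contrasts were adjusted over the 335 assays and called below 0.05. miR-30e and miR-384-5p came from the same fit over 478 assays with a Ct in at least 2 samples of each group, in which a sample without a Ct was dropped. Fits without wt control replicate 1 used the 382 assays read in all remaining samples, and their normalizer. Exact permutation tests (Python 3.11.15, scipy 1.17.1, numpy 2.4.6, pandas 2.3.3) compared single assays, and figures were drawn with matplotlib 3.10.9. The fit was tested on simulated data.

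The labels do not say that replicate numbers pair samples. Assays named in the text were the miR-30 assays, their passenger strands, assays sharing the seed, and the 3 most correlated assays. The members, the let-7 list, the cell type markers and the other lists were chosen with earlier results of these data known. The alternatives were another normalizer (the median, or snoRNA135 and snoRNA202), a Ct limit of 26, no detection filter, the deposited fold changes, the geometric mean of FCs, the methods' t-test as a further condition, a replicate block and leaving out each sample; leaving out both wt control replicate 1 and P2rx7-/- post-SE replicate 1 was added after seeing the data. The number of samples limits the precision, and p-values measure the spread between pools.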

Additional observations from a re-analysis of the deposited data

Results flagged for a closer look

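For 3 results every sample lay on one side of its reference mean in one comparison and every sample on the other side in the matching comparison. The difference between the comparisons was tested with the interaction term of limma, which passed for none of them. The genotype difference of miR-30a-5p in post-SE samples less that in control samples was −2.93 (SE 2.51, adjusted p = 0.851), and −0.18 without wt control replicate 1. That of miR-30c was −3.47 (SE 2.24, adjusted p = 0.851), and −1.37 without that sample, with P2rx7-/- post-SE replicate 3 level with the wt post-SE mean (8.32 each). The SE effect on miR-30b in P2rx7-/- mice less that in wt mice was 0.68 (SE 0.65, adjusted p = 0.851), and 0.22 without that sample. Here wt post-SE replicate 2 (8.082) was level with the wt control mean (8.089). That mean was 7.64 without wt control replicate 1, below wt post-SE replicates 2 (8.08) and 3 (7.78).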

How the results depend on the processing

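The limma count of 0 assays was the same under every other normalizer, Ct limit, filter and design tried, and the lowest adjusted p of a miR-30 assay over them was 0.581, or 0.382 with samples left out. Leaving out 1 sample gave 0 to 1 assay in wt post-SE against wt control and in P2rx7-/- post-SE against P2rx7-/- control samples, each time miR-21*, no member, without P2rx7-/- control replicate 2. Over 18 same-numbered pairs of samples the correlations ran from −0.227 to 0.277. Replicate 3 of the P2rx7-/- control correlated at 0.277 with that of the wt post-SE and at 0.271 with that of the P2rx7-/- post-SE samples. The latter 2 correlated at 0.251. Of 12 samples, 6 were most alike to one of their own number, so these values do not settle whether the numbers pair samples. With the replicate block the limma count stayed 0 in all 5 contrasts, while the interaction of miR-30e turned from −0.08 to 0.24. The FC counts of 3, 2, 1 and 1 members, in the order of the report, became 0 in all 4 comparisons with the methods' t-test as a further condition. In P2rx7-/- versus wt post-SE samples the count was 0 with the median as normalizer and 2 with the snoRNAs. Leaving out 1 sample gave 0 to 3, 0 to 2, 0 to 3 and 1 to 3 members. Without both wt control replicate 1 and P2rx7-/- post-SE replicate 1, chosen after seeing the data, the first 3 counts were 0. Single differences that turned sign were near 0 or rested on 1 sample. With the deposited fold changes these were miR-30a-3p (−0.11, P2rx7-/- against wt control), miR-30d (−0.012, wt post-SE against wt control), miR-30e-3p (−0.021, P2rx7-/- post-SE against P2rx7-/- control) and the interaction of miR-30e (0.12). miR-30e-3p in P2rx7-/- against wt control samples turned to 0.070 with the median, 0.11 with the snoRNAs and 0.029 with Ct below 26, and in P2rx7-/- post-SE against P2rx7-/- control samples to −0.016 with Ct below 26. The interaction of miR-30e was 0.063 with the median and 0.20 with the snoRNAs. Without both named samples, miR-30a-5p (−0.52), miR-30c (−0.29) and miR-30a-3p (−0.001) turned in P2rx7-/- against wt control, miR-30b (0.10) in wt post-SE against wt control, miR-30e-3p (−0.038) in P2rx7-/- post-SE against P2rx7-/- control, miR-30d (−0.27) in P2rx7-/- versus wt post-SE and the interaction of miR-30d (−0.079). Leaving out 1 sample turned P2rx7-/- against wt control differences of miR-30a-5p (−0.50 to 3.66), miR-30c (−0.28 to 2.93), miR-30a-3p (−0.091 to 0.11) and miR-30e-3p (−0.065 to 0.078, or −0.078 without both named samples). It turned wt post-SE against wt control differences of miR-30a-3p (−0.61 to 0.041), miR-30b (−0.57 to 0.10), miR-30e-3p (−0.77 to 0.075) and miR-30e (−0.00068 to 1.02). In P2rx7-/- post-SE against P2rx7-/- control samples it turned miR-30a-3p (−0.038 to 0.15), miR-30a-5p (−0.030 to 0.58), miR-30b (−0.035 to 0.57) and miR-30e-3p (−0.060 to 0.052). In P2rx7-/- versus wt post-SE samples it turned miR-30d (−0.29 to 0.41), miR-30e-3p (−0.070 to 0.76) and miR-30e (−0.71 to 0.30), and of the interactions miR-30e-3p (−0.068 to 0.78) and miR-30e (−0.53 to 0.48), while that of miR-30d reached 0.79 without P2rx7-/- post-SE replicate 3. The other 227 of 245 single values, and 381 of 410 with 1 sample left out, kept their direction. Among all FC calls, 57.7% were up in P2rx7-/- against wt control samples, against 69.0% with the snoRNAs and 48.4% with the deposited fold changes, and 79.2% in P2rx7-/- versus wt post-SE samples, against 90.9% with the snoRNAs. Of the medians over all assays, that of the last comparison moved most, from −0.01 to 0.22 with the snoRNAs. Single wells, Ct values near 10 and 3 samples per group limit what can be seen.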
